A study of Rattus norvegicus with 24 samples.

Results

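Solute carriers are membrane proteins that move ions, nutrients, metabolites and drugs across the cell surface and the membranes of organelles, many of them by coupling their cargo to a gradient of sodium or protons. Absorptive cells of the distal colon use them to take up short-chain fatty acids made by bacteria and to exchange chloride for bicarbonate. Tumour cells are known for changed uptake of amino acids and sugars and for release of lactate. Measured here were 181 solute carrier genes of 47 families, out of 272 such genes and 26097 features with usable signal on the array. They were selected on name and on signal: a gene of the Slc series was taken when a probe for it had a Cy3 signal flagged well above background on at least 12 of 24 arrays. A further 6 genes (Slc26a2, Slc26a3, Slc9a2, Slc9a3, Slc12a2 and Slc2a1) were set aside by name and 85 fell short of the signal rule. Just inside it, on 12 arrays, lay Slc13a1, Slc17a1 and Slc8a1, and just outside, on 11, lay Slc16a12, Slc1a2 and Slc29a2. Of the 181 genes, 128 were well above background on every array and 10 on only 12 to 14. A gene could be selected through the group in which it was high, so the counts of changed genes below only describe the genes measured.

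The study asked how dextran sodium sulfate (DSS), an irritant of the colonic lining given in the drinking water, alters gene expression in the colon and in colonic tumours. All 10 animals were male (ACIxF344)F1-Pirc rats of genotype Apc-Pirc/+, killed at 97 days of age; they carry 1 mutant copy of the tumour suppressor gene Apc in every cell and form colonic tumours, so their normal colon is mutant too. The 5 DSS rats (rats 1, 5, 6, 7 and 9) drank 4% DSS from day 40 to day 47 and again from day 54 to day 61; the 5 untreated rats were rats 2, 3, 4, 8 and 10. Normal tissue and tumours came from the distal colon of the same rats, giving 4 groups of 5 rats. Each sample was labelled with Cy3 and hybridized against 1 Cy5-labelled pool of colon RNA from Apc wild-type rats, whose age the labels give only as a range, with no dye swap. Every level below is therefore log2 of sample over pool: 0 means equal to the pool, and levels of different genes cannot be set against each other.

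There were 24 arrays for the 20 samples, because 4 samples had a second array that was averaged with the first: normal tissue of rats 2, 3 and 6, and rat 6 tumour. On 21 arrays 47.6% to 70.5% of probes were well above background; it was 86.9% to 95.2% on 3 arrays of raised signal, namely the first for normal tissue of rat 2, the one for normal tissue of rat 4 and the one for the tumour of rat 9. Slide set 1 (rats 1 to 6) had 29 to 152 saturated Cy5 probes per array and slide set 2 (rats 7 to 10) had 388 to 452. Slide set and scan day cannot be told apart for set 2. Across the solute carrier genes second arrays correlated with first ones at 0.848 for rat 2 and 0.959 to 0.981 for the others. Normal tissue of 2 DSS rats, 1 and 5, correlated at 0.978, as closely as second arrays of a single sample, so counts are also given with that pair as 1 sample. Of 7 general epithelial markers 6 were measured: their mean ran from -0.34 to 0.56 over the samples, and none was below background on all arrays of a group. The intestinal factor Cdx2 averaged -0.81 in normal colon and -1.49 in tumours of untreated rats, where it was lower in tumours (-0.68, adjusted p = 0.0317), and -1.09 and -1.59 in DSS rats.

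Tumours of untreated rats were compared with normal colon of the same rats. Slc26a1 (3.10), Slc26a4 (2.79), Slc25a4 (2.26), Slc16a3 (2.23) and Slc30a2 (2.06) had the largest increases, as log2 change, and Slc12a8 (-2.25), Slc30a3 (-2.15), Slc27a6 (-2.11), Slc15a1 (-1.91) and Slc13a2 (-1.74) the largest decreases. Each gene was tested with limma, p-values were adjusted by Benjamini-Hochberg across the 26097 features, and 0.05 was the threshold. By this test 21 genes were higher and 37 lower in tumours. That is 58 of 181, or 32%, against 18.2% of all features (8.7% higher and 9.5% lower). Changes are given on the log2 scale, ± SE, with 5 rats per group and 16 residual degrees of freedom. The median change was -0.064 over the solute carrier genes and -0.0016 over all features. Among the 21157 features held to the same signal rule as the members, 22.6% passed, beside 34.3% of members. Without rat 8 the count was 38, and over the other rats left out in turn it reached 62; 33 of the 58 calls held whichever rat was left out. With rat as a replicate block, which pairs the tissues of a rat, 75 passed, 24 higher and 51 lower. Within each slide set all 58 kept their direction.

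In DSS rats 6 genes were higher and 19 lower in tumours than in normal colon, 25 of 181 or 13.8%, against 7.66% of all features (3.78% higher and 3.88% lower). Among features held to the same signal rule as the members, 8.89% passed, beside 13.8% of members. Median changes were 0.013 over members and 0.022 over all features. Without rat 5 the count was 12 and without rat 9 it was 16. With the normal colon of rats 1 and 5 counted as 1 sample, 3 were higher and 15 lower. With rat as a replicate block 35 passed, 10 higher and 25 lower. Of the genes higher in tumours, 5 passed in both treatments, Slc11a2, Slc16a13, Slc26a1 and Slc30a2 among them, which is 23.8% of the 21 and 83.3% of the 6. Of those lower, 12 passed in both, 32.4% of the 37 and 63.2% of the 19: Slc12a8, Slc13a2, Slc15a1, Slc16a1, Slc16a6, Slc25a10, Slc25a5, Slc27a6, Slc30a3, Slc35a3, Slc44a4 and Slc6a8. No gene passed in opposite directions. The same shares were not computed over all features, so this overlap cannot be called particular to solute carriers. These comparisons use different rats and share no sample. Both counts depended on the loess step that evens out dye intensity: with median centring in its place, 14 genes passed in untreated rats (5 higher, 9 lower), and 6 passed in DSS rats, where 66.7% of calls were higher instead of 24%. Median centring moved the median of all features in DSS rats from 0.022 to 0.25, on the log2 scale. All 58 and 23 of the 25 kept their direction under it. The exceptions were Slc44a4 and Slc30a1.

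**Figure D1:**
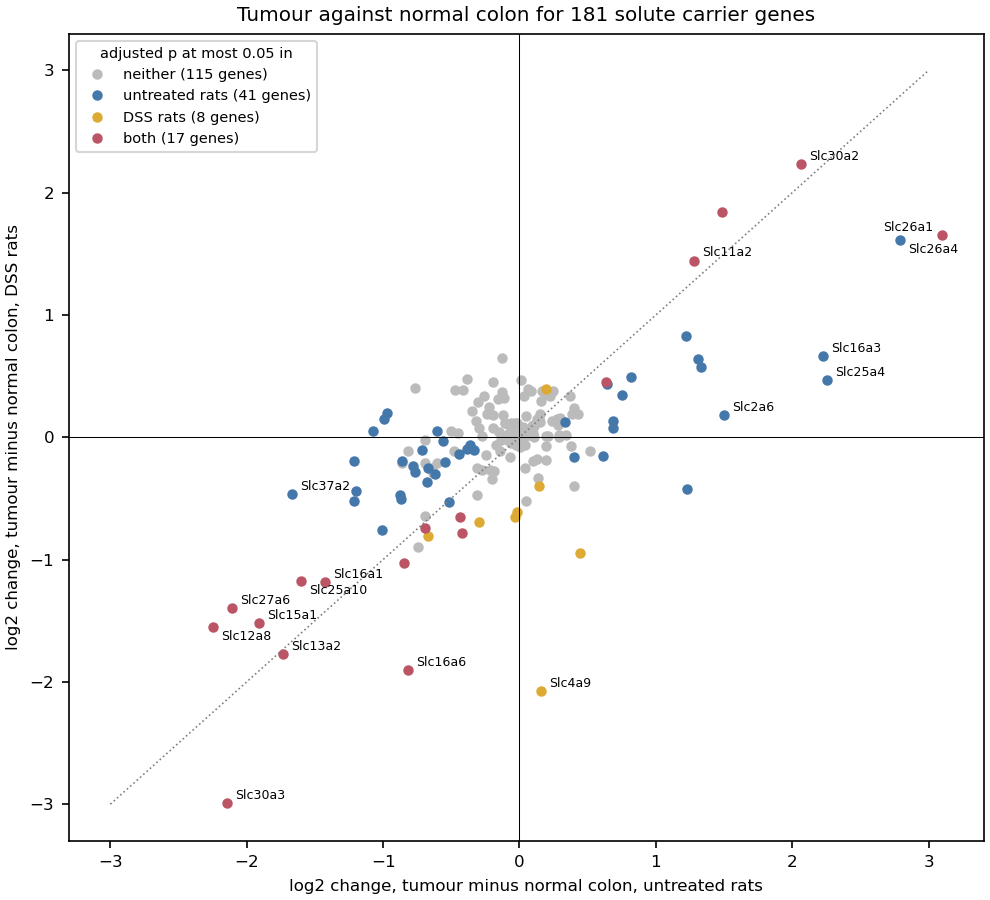
Each point is 1 of 181 solute carrier genes, placed by its log2 change from normal colon to tumour in untreated rats (x axis) and in DSS rats (y axis); colour gives where the adjusted p was at most 0.05, and the dotted line marks equal change. The 17 genes called in both lie in the lower left and upper right corners, with Slc30a2 and Slc30a3 at the far ends along the y axis.

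Markers of several cell types moved with these comparisons. The mean over 7 absorptive colonocyte markers ran from -1.35 to -0.51 in untreated normal colon and from -3.05 to -1.34 in their tumours, and from -1.37 to -0.76 and -3.03 to -2.20 in DSS rats. In each treatment 4 of the 7 were lower in tumours, as were 3 of the 4 measured goblet cell markers. Of 5 enteroendocrine markers, 5 were lower in untreated and 2 in DSS rats. In untreated rats 4 of 6 fibroblast, 4 of 5 measured macrophage and 4 of 5 neutrophil markers were higher in tumours. In DSS rats 0, 1 and 0 were. The median log2 changes of these lists were 1.43, 1.03 and 0.64 in untreated rats and 1.01, 0.45 and -0.090 in DSS rats. No marker of these lists was below background on all arrays of a group. Over all features 8.7% were higher and 9.5% lower in tumours of untreated rats, and 3.78% and 3.88% in DSS rats. The part of cell composition in the changes of transporters was not tested, and in bulk tissue fewer cells of a type and less RNA per cell cannot be told apart.

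Slc26a1 and Slc26a4, anion exchangers of the SLC26 family, had the largest increases in tumours of untreated rats; the other 2 of the 4 SLC26 genes did not pass. Slc26a1, a sulfate and oxalate exchanger, read -0.0081, 0.087, -0.058, -0.11 and 0.00089 in normal colon of rats 2, 3, 4, 8 and 10 and 1.60, 1.79, 3.39, 4.54 and 4.09 in their tumours, and the groups did not overlap. In DSS rats 1, 5, 6, 7 and 9 it read 0.16, 0.28, 0.49, 0.67 and 0.36 in normal colon and 0.98, 1.97, 2.59, 2.95 and 1.74 in tumours, again without overlap. Every list of rat values below keeps this order of rats. The log2 change was 3.10 ± 0.46 in untreated rats (adjusted p = 0.00017) and 1.65 ± 0.46 in DSS rats (adjusted p = 0.0331; lost without rat 5, 6, 7 or 9, adjusted p up to 0.116, and without the 3 arrays of raised signal, adjusted p = 0.0624). The probe was well above background on 2 of 7 arrays of normal colon of untreated rats and 4 of 6 of DSS rats. Its promoter is shown because it had the largest increase of any member in untreated rats. It is the RefSeq sequence of the 250 bases before the start in build GRCr8 (chr14:1184721-1184970, plus strand). The bases run 5′ to 3′ on the strand of the gene. Capitals mark a loose form of the AP-1 site, TGANTCA, with N being any base.
Slc26a1: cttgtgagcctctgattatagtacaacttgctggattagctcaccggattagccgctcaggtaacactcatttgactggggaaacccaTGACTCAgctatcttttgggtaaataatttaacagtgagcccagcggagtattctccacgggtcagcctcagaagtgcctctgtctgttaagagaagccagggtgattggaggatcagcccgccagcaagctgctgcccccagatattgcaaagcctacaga
This loose form was found in 3 of the 16 promoters of genes higher in tumours of untreated rats and in 2 of the 33 of genes lower. Among all 147 members with a promoter 10.9% held it.

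Slc26a4 is pendrin, an exchanger of chloride, iodide and bicarbonate. Its levels were -0.38, -0.38, -0.063, -0.39 and -0.029 in untreated normal colon and 0.43, 1.76, 1.68, 5.15 and 3.69 in their tumours, a change of 2.79 ± 0.57 (adjusted p = 0.00213). Rats 8 and 10, of slide set 2, had the highest tumours; the change was 1.56 within slide set 1 and 4.63 within set 2. In DSS rats the tumours (0.97, 1.37, 1.26, 1.41 and 1.83) lay above all 5 normal samples (-0.41, -0.40, -0.017, -0.18 and -0.21), but the change of 1.61 ± 0.57 did not pass (adjusted p = 0.0982). Whether the change differs between treatments was tested as the interaction. It did not pass for Slc26a4 (adjusted p = 0.532) or for Slc26a1 (adjusted p = 0.295). Of the 11 bicarbonate, chloride and other anion exchangers measured, 3 were higher and 0 lower in tumours of untreated rats, the third being Slc4a11 at 0.69 ± 0.19 (adjusted p = 0.0159; lost without rat 4 or 8, adjusted p up to 0.0846). Over all features 8.7% were higher and 9.5% lower in tumours of untreated rats. The sodium bicarbonate cotransporter Slc4a4 changed by -0.82 ± 0.38 without passing (adjusted p = 0.152).

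Carriers of monocarboxylates such as lactate and butyrate changed in opposite directions. Slc16a1 (MCT1), which takes up butyrate in the colon, read 0.15, 0.10, 0.47, -0.63 and -0.097 in untreated normal colon and -0.77, -1.50, -1.31, -1.63 and -1.92 in tumours. In DSS rats it read -0.54, -0.57, -0.25, -0.64 and -0.86 in normal colon and -1.54, -1.94, -1.61, -1.58 and -2.10 in tumours. Every tumour lay below every normal sample of the same treatment. The changes were -1.42 ± 0.20 (adjusted p = 0.000129) and -1.18 ± 0.20 (adjusted p = 0.0013), a fold of 2.68 and 2.27 downward, and both calls held whichever rat was left out.

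Slc16a3 (MCT4), known for release of lactate from glycolytic cells, moved the other way. In untreated rats it read 0.67, 0.73, 0.98, -0.29 and 0.81 in normal colon and 2.88, 2.71, 3.32, 2.83 and 2.28 in tumours, with no overlap and a change of 2.23 ± 0.30 (adjusted p = 7.15e-05). Rat 8 was lowest in normal colon. In DSS rats normal colon (1.50, 1.72, 1.38, 0.56 and 0.77) and tumours (2.10, 2.26, 2.47, 1.13 and 1.30) overlapped, with a change of 0.66 ± 0.30 (adjusted p = 0.218), and the interaction of -1.57 did not pass (adjusted p = 0.0541). The promoters of both genes, from RefSeq in build GRCr8, are shown because the genes moved apart. Capitals mark the E box CACGTG in Slc16a1 (chr2:194812410-194812659, plus strand) and the loose AP-1 form TGANTCA in Slc16a3 (chr10:106712078-106712327, plus strand).
Slc16a1: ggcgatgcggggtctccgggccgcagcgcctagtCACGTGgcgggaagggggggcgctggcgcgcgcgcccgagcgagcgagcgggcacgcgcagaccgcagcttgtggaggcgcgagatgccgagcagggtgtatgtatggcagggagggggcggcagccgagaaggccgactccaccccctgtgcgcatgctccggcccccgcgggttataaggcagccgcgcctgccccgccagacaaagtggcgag
Slc16a3: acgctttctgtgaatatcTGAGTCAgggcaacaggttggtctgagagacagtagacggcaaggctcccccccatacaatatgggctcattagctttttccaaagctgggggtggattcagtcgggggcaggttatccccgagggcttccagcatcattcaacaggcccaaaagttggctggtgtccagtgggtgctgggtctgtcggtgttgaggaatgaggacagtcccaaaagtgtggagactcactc
The E box stood in 0 of the 16 promoters of genes higher in tumours of untreated rats and in 7 of the 33 of genes lower. Among all 147 members with a promoter 14.3% held it.

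Slc16a6, a carrier of ketone bodies and taurine, was lower in tumours of untreated rats at -0.82 ± 0.23 (adjusted p = 0.0191; lost without rat 8, adjusted p up to 0.15) and of DSS rats at -1.91 ± 0.23 (adjusted p = 4.67e-05). Its second probe changed by -0.26 and -0.27 and did not pass in either. Slc16a11 and Slc16a13 are less studied members of the family and lie next to each other on chromosome 10. In tumours of untreated rats Slc16a11 was higher at 1.23 ± 0.21 (adjusted p = 0.000606) and Slc16a13 at 0.64 ± 0.13 (adjusted p = 0.00173). In DSS rats Slc16a13 was also higher, at 0.45 ± 0.13 (adjusted p = 0.0346; lost without rat 1, 5, 6 or 9, adjusted p up to 0.158, and without the 3 arrays of raised signal, adjusted p = 0.0638). Of 8 carriers of this family, 3 were higher and 3 lower in untreated rats, and 1 and 2 in DSS rats. Over all features 8.7% were higher and 9.5% lower in untreated rats, and 3.78% and 3.88% in DSS rats. Slc5a8, the sodium-coupled carrier of the same substrates, did not meet the signal rule.

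Zinc transporters included genes that rose and genes that fell. SLC30 proteins move zinc out of the cytosol and SLC39 proteins move it in. Slc30a2, which loads zinc into vesicles, read -0.88, -1.36, -0.22, -2.11 and -0.28 in normal colon and 0.21, 1.25, 1.10, 1.85 and 1.04 in tumours of untreated rats. In DSS rats it read -0.29, -0.45, 0.15, -1.20 and -0.62 in normal colon and 1.74, 1.75, 1.95, 1.78 and 1.52 in tumours. The groups did not overlap in either treatment, and the tumours of DSS rats spread least. The changes were 2.06 ± 0.33 (adjusted p = 0.000346) and 2.23 ± 0.33 (adjusted p = 0.00034), folds of 4.17 and 4.7. A second probe gave 1.79 and 1.83, also past the threshold. The promoters of Slc30a2 (chr5:151843201-151843450, plus strand) and of the zinc exporter Slc30a1 (chr13:106021769-106022018, plus strand), which rose in another comparison, are shown from RefSeq in build GRCr8 with the metal response core TGCNCNC in capitals, 3 and 2 times.
Slc30a2: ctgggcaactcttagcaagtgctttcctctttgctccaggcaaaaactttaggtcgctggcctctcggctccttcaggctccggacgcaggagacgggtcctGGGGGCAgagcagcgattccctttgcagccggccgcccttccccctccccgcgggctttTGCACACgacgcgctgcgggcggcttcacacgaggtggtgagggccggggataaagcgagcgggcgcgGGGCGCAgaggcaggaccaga
Slc30a1: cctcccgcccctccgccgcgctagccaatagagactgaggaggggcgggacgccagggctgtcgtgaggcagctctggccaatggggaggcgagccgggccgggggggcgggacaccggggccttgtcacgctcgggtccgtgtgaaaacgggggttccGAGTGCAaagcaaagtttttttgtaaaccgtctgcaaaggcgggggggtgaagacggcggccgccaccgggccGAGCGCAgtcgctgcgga
The zinc sensor MTF1 binds a stricter form of this core, TGCRCNC with R being A or G, so some matches lie outside it. One such match is the first stretch marked in Slc30a2, which is TGCCCCC on the other strand. A match is a description of letters only.

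Slc30a3, which fills synaptic vesicles with zinc in neurons, was lower in tumours. It read 1.35, 1.38, 1.08, 0.73 and -0.61 in normal colon and 0.13, -1.09, 0.071, -3.63 and -2.30 in tumours of untreated rats, which overlapped, and 0.61, 0.28, 1.62, 0.39 and -1.22 in normal colon and -1.67, -3.18, -3.01, -2.52 and -2.88 in tumours of DSS rats, which did not. The change was -2.15 ± 0.64 in untreated rats (adjusted p = 0.025) and -2.99 ± 0.64 in DSS rats (adjusted p = 0.00651), the largest decrease of any member there. The call in untreated rats was lost without rat 3 or 8, adjusted p up to 0.12, and without the 3 arrays of raised signal, adjusted p = 0.0534. Among 19 zinc transporters 2 were higher and 4 lower in tumours of untreated rats, and 1 and 2 in DSS rats. Over all features 8.7% were higher and 9.5% lower in untreated rats, and 3.78% and 3.88% in DSS rats. Of all 181 solute carrier genes 32% passed in untreated rats and 13.8% in DSS rats. Slc39a11 and Slc39a13, of the importing family, were lower in untreated rats at -0.54 ± 0.13 and -0.77 ± 0.18 (adjusted p = 0.00688 and 0.00696). A second probe for Slc39a11 changed by -0.46 and passed, and one for Slc39a13 changed by -0.11 and did not. The intestinal zinc importer Slc39a4 changed by -0.20 ± 0.31 and -0.34 ± 0.31, neither past the threshold.

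**Figure D2:**
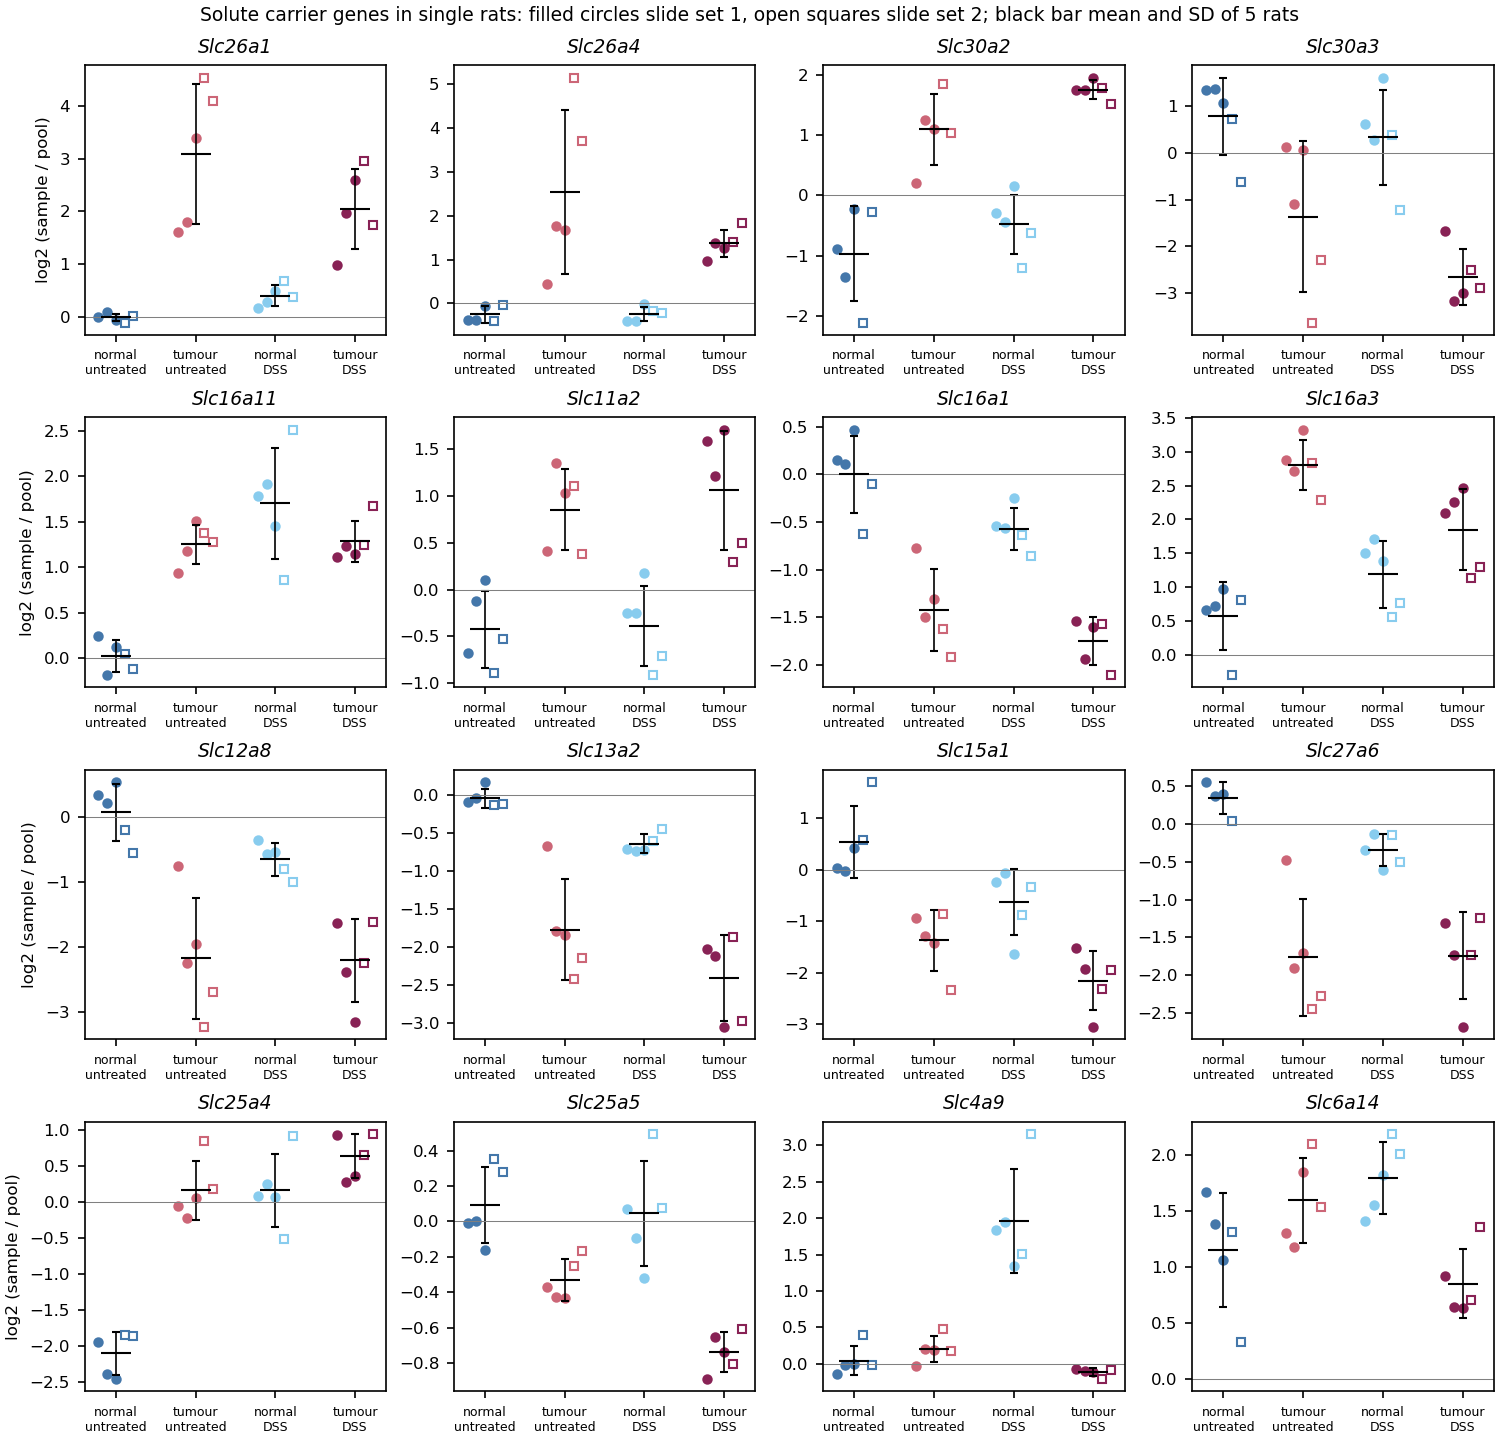
Levels of 16 solute carrier genes in single rats, as log2 of sample over pool (y axis), in the 4 groups (x axis); filled circles are slide set 1, open squares slide set 2, and black bars give the mean and SD of 5 rats, or of 4 for Slc27a6 in normal colon of untreated rats. Slc30a2 tumours sit above 0 and Slc16a1 tumours below -0.7 in both treatments, while Slc25a4 stands near -2 in normal colon of untreated rats alone.

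Slc11a2 (DMT1), which brings ferrous iron into the cell, was higher in tumours of both treatments. It read -0.68, -0.12, 0.10, -0.89 and -0.53 in normal colon and 0.41, 1.35, 1.03, 1.10 and 0.38 in tumours of untreated rats and -0.25, -0.25, 0.18, -0.91 and -0.71 in normal colon and 1.59, 1.21, 1.71, 0.29 and 0.49 in tumours of DSS rats. Tumours lay above normal samples without overlap each time, with changes of 1.28 ± 0.29 (adjusted p = 0.00487) and 1.44 ± 0.29 (adjusted p = 0.0042). A second probe for the gene changed by -0.063 and 0.26 and did not pass, so the probes disagree. The iron exporter Slc40a1 (ferroportin) changed by -0.69 ± 0.28 and -0.21 ± 0.28 and did not pass. Of the magnesium transporters, Slc41a3 was lower at -1.22 ± 0.20 and Slc41a1 at -0.68 ± 0.12 in tumours of untreated rats (adjusted p = 0.000436 and 0.000806).

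Among 8 carriers of organic cations, anions and drugs, 1 was higher and 1 lower in tumours of each treatment. Over all features 8.7% were higher and 9.5% lower in untreated rats, and 3.78% and 3.88% in DSS rats. Slc22a17, a receptor for lipocalin, was lower in tumours of untreated rats at -1.20 ± 0.22 (adjusted p = 0.000924). Slc22a5, the carnitine carrier, changed by -0.64 ± 0.34 and -0.25 ± 0.34 without passing.

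Several carriers of nutrients and ions were lower in tumours of both treatments. Slc13a2, a carrier of citrate and other dicarboxylates, read -0.083, -0.040, 0.18, -0.13 and -0.11 in normal colon and -0.67, -1.79, -1.84, -2.42 and -2.14 in tumours of untreated rats. In DSS rats it read -0.71, -0.74, -0.72, -0.60 and -0.44 in normal colon and -2.02, -2.12, -3.05, -1.87 and -2.98 in tumours. No tumour overlapped the normal samples of its treatment, and the changes were -1.74 ± 0.27 (adjusted p = 0.000224) and -1.77 ± 0.27 (adjusted p = 0.000384). The proton-coupled folate carrier Slc46a1, its neighbour on chromosome 10, was lower in untreated rats at -1.0 ± 0.26 (adjusted p = 0.0112), where its second probe changed by -0.22 without passing, and changed by 0.15 ± 0.26 in DSS rats (adjusted p = 0.818).

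Slc15a1 (PEPT1), the peptide carrier, read 0.023, -0.018, 0.41, 0.58 and 1.71 in normal colon and -0.93, -1.30, -1.43, -0.85 and -2.34 in tumours of untreated rats and -0.25, -0.072, -1.65, -0.89 and -0.33 in normal colon and -1.53, -1.93, -3.05, -2.32 and -1.96 in tumours of DSS rats. Rat 10 stood highest among untreated normal samples, which did not overlap with tumours, while in DSS rats the normal colon of rat 6 lay among the tumours. The changes were -1.91 ± 0.37 (adjusted p = 0.00163) and -1.52 ± 0.37 (adjusted p = 0.0162). The second was lost without rat 5 or 9, adjusted p up to 0.0745, and also with the normal colon of rats 1 and 5 as 1 sample. Slc15a3, a lysosomal carrier of histidine and peptides found in macrophages, was higher in tumours of untreated rats at 0.68 ± 0.15 (adjusted p = 0.00327). The mean of the 5 measured of 6 macrophage markers ran from -1.18 to -0.38 in normal colon and from -0.079 to 0.97 in tumours of the same rats, and its part in the change of Slc15a3 was not tested.

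Slc12a8, of the cation-chloride cotransporter family, read 0.34, 0.23, 0.55, -0.19 and -0.55 in normal colon and -0.76, -2.25, -1.95, -3.22 and -2.68 in tumours of untreated rats, and -0.34, -0.57, -0.54, -0.80 and -0.99 in normal colon and -1.63, -2.38, -3.14, -2.25 and -1.60 in tumours of DSS rats. Tumours were below normal samples with no overlap, with changes of -2.25 ± 0.37 (adjusted p = 0.000386) and -1.56 ± 0.37 (adjusted p = 0.0123; lost without rat 5 or 6, adjusted p up to 0.0669). The potassium-chloride cotransporter Slc12a7 was lower in untreated tumours at -1.08 ± 0.25 (adjusted p = 0.00619). Of its 4 other probes, all with smaller decreases, 2 passed. Slc27a6, which brings in long-chain fatty acids, read 0.56, 0.38, 0.40 and 0.042 in normal colon of rats 2, 3, 4 and 8 (rat 10 has no value) and -0.48, -1.90, -1.71, -2.45 and -2.28 in the 5 tumours. It changed by -2.11 ± 0.33 in untreated rats (adjusted p = 0.000308) and by -1.39 ± 0.31 in DSS rats (adjusted p = 0.00898; lost without rat 5, adjusted p up to 0.0517). Slc44a4, a carrier of choline and thiamine pyrophosphate, was lower at -0.44 ± 0.13 and -0.65 ± 0.13 (adjusted p = 0.0277 and 0.00479). In untreated rats the call was lost without rat 4, 8 or 10, adjusted p up to 0.167, and in DSS rats median centring turned the change to 0.083.

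Amino acid carriers numbered 31, of which 3 were higher and 4 lower in tumours of untreated rats and 1 and 2 in DSS rats. Over all features 8.7% were higher and 9.5% lower in untreated rats, and 3.78% and 3.88% in DSS rats. Slc6a8, the creatine carrier, was lower in both at -0.85 ± 0.22 and -1.03 ± 0.22 (adjusted p = 0.0123 and 0.00679). These calls were lost without rat 10, adjusted p up to 0.0885 and lost without rat 9, adjusted p up to 0.0559, in turn, and a second probe changed by -0.18 and -0.62 without passing. Slc6a4, the serotonin reuptake carrier, read 0.39, 0.25, 0.38, 0.42 and -0.019 in normal colon and -0.24, -1.04, -0.85, -1.20 and -1.29 in tumours of untreated rats, with no overlap. It changed by -1.21 ± 0.19 there (adjusted p = 0.000234) and by -0.20 ± 0.19 in DSS rats (adjusted p = 0.621). The glutamine carriers Slc1a5, Slc38a1 and Slc38a2 changed by -0.11, -0.032 and 0.098 in untreated rats and by 0.32, -0.021 and -0.19 in DSS rats, none past the threshold. A second Slc38a2 probe changed by 0.57 in untreated and -0.029 in DSS rats and did not pass either. Slc7a5 (LAT1), which brings in large neutral amino acids, and its partner chain Slc3a2 changed by 0.38 and 0.031 in untreated rats, also without passing. The increases were those of Slc7a1, Slc38a4 and Slc7a8, named here after their values were seen: the cationic amino acid carrier Slc7a1 changed by 1.33 ± 0.36 (adjusted p = 0.0155; lost without rat 4 or 10, adjusted p up to 0.0977), and its second probe by 0.24 without passing. Slc38a4 changed by 1.31 ± 0.40 (adjusted p = 0.0306; lost without rat 4 or 8, adjusted p up to 0.136). Slc7a8 changed by 1.22 ± 0.41 (adjusted p = 0.0437; lost without rat 3, 4, 6, 8 or 10, adjusted p up to 0.125, and without the 3 arrays of raised signal, adjusted p = 0.071).

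Among 11 carriers of glucose and other sugars, Slc2a6, a lysosomal hexose carrier, was higher in tumours of untreated rats. It read -0.34, -0.69, -0.36, 0.23 and 0.16 in normal colon and 0.43, 0.76, 1.78, 1.89 and 1.63 in tumours, with no overlap and a change of 1.50 ± 0.26 (adjusted p = 0.000612). Slc2a5, the fructose carrier, was lower at -0.97 ± 0.31 (adjusted p = 0.0344; lost without rat 3, 4, 8 or 10, adjusted p up to 0.182, and without the 3 arrays of raised signal, adjusted p = 0.146), with -0.47 within slide set 1 and -1.73 within set 2. Both sugar phosphate carriers of the endoplasmic reticulum that passed, Slc37a2 and Slc37a4, were lower at -1.67 ± 0.32 and -0.78 ± 0.15 (adjusted p = 0.00147 and 0.00154). The 6 nucleoside carriers gave no call in any comparison. Slc28a2, which concentrates purine nucleosides, lay at -2.77, -2.68, -2.88 and -2.86 in normal colon and tumours of untreated rats and of DSS rats, below the pool in every sample group, with no difference past the threshold between groups.

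Other calls were smaller or stood in 1 comparison. In tumours of untreated rats the glycine carrier Slc6a5 was lower at -0.86 ± 0.17 (adjusted p = 0.00181), Slc25a29, which brings basic amino acids into mitochondria, at -0.88 ± 0.17 (adjusted p = 0.00156), and the sugar carrier Slc45a3 at -0.87 ± 0.19 (adjusted p = 0.00394). Slc17a5, which lets sialic acid out of lysosomes, was lower at -0.71 ± 0.17 (adjusted p = 0.00573). Slc35a3, which carries UDP-N-acetylglucosamine into the Golgi for mucin and other glycans, was lower in both treatments at -0.69 ± 0.20 and -0.74 ± 0.20 (adjusted p = 0.0218 and 0.029). The first of these was lost without rat 8 or 10, adjusted p up to 0.102 and the second lost without rat 1, 6, 7 or 9, adjusted p up to 0.156. Higher in untreated tumours were the folate carrier Slc19a1 at 0.64 ± 0.21 (adjusted p = 0.041; lost without rat 1, 2, 3, 4, 5, 7, 8 or 10, adjusted p up to 0.111) and the ascorbate carrier Slc23a2 at 0.33 ± 0.10 (adjusted p = 0.0289; lost without rat 3, 4 or 8, adjusted p up to 0.115).

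Some genes passed in DSS rats and missed the threshold in untreated rats; whether those changes differ is tested by the interaction below. The ergothioneine carrier Slc22a4 was lower at -0.61 ± 0.14 (adjusted p = 0.00975; lost without rat 1 or 5, adjusted p up to 0.0558), the copper transporter Slc31a2 at -0.65 ± 0.17 (adjusted p = 0.024; lost without rat 1, 5, 6 or 9, adjusted p up to 0.0925), and the inositol carrier Slc5a3 at -0.81 ± 0.24 (adjusted p = 0.0452; lost without rat 1, 2, 3, 5, 6, 7, 8 or 9, adjusted p up to 0.172, and without the 3 arrays of raised signal, adjusted p = 0.0772). The phosphate carrier Slc34a2 was lower at -0.69 ± 0.16 (adjusted p = 0.0112; lost without rat 5 or 9, adjusted p up to 0.0735). Its probe was not well above background on any of the 6 arrays of these tumours, so the difference is a bound: at least 1.36-fold lower than the normal colon. A second Slc34a2 probe changed by -0.15 without passing. Slc38a9, a lysosomal sensor of arginine, was higher at 0.39 ± 0.11 (adjusted p = 0.0415; lost without rat 1, 3, 4, 5, 6, 7 or 9, adjusted p up to 0.21, and without the 3 arrays of raised signal, adjusted p = 0.0897). In the replicate block fit, which pairs the tissues of a rat, Slc38a9 and Slc16a13 lost their calls in DSS rats (adjusted p = 0.0625 and 0.0666), as did Slc66a3 (adjusted p = 0.0794) and Slc38a4 in untreated rats. The phosphate carrier Slc20a1 changed by -0.74 ± 0.28 and -0.90 ± 0.28 and did not pass (adjusted p = 0.0758 and 0.0593).

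**Figure D3:**
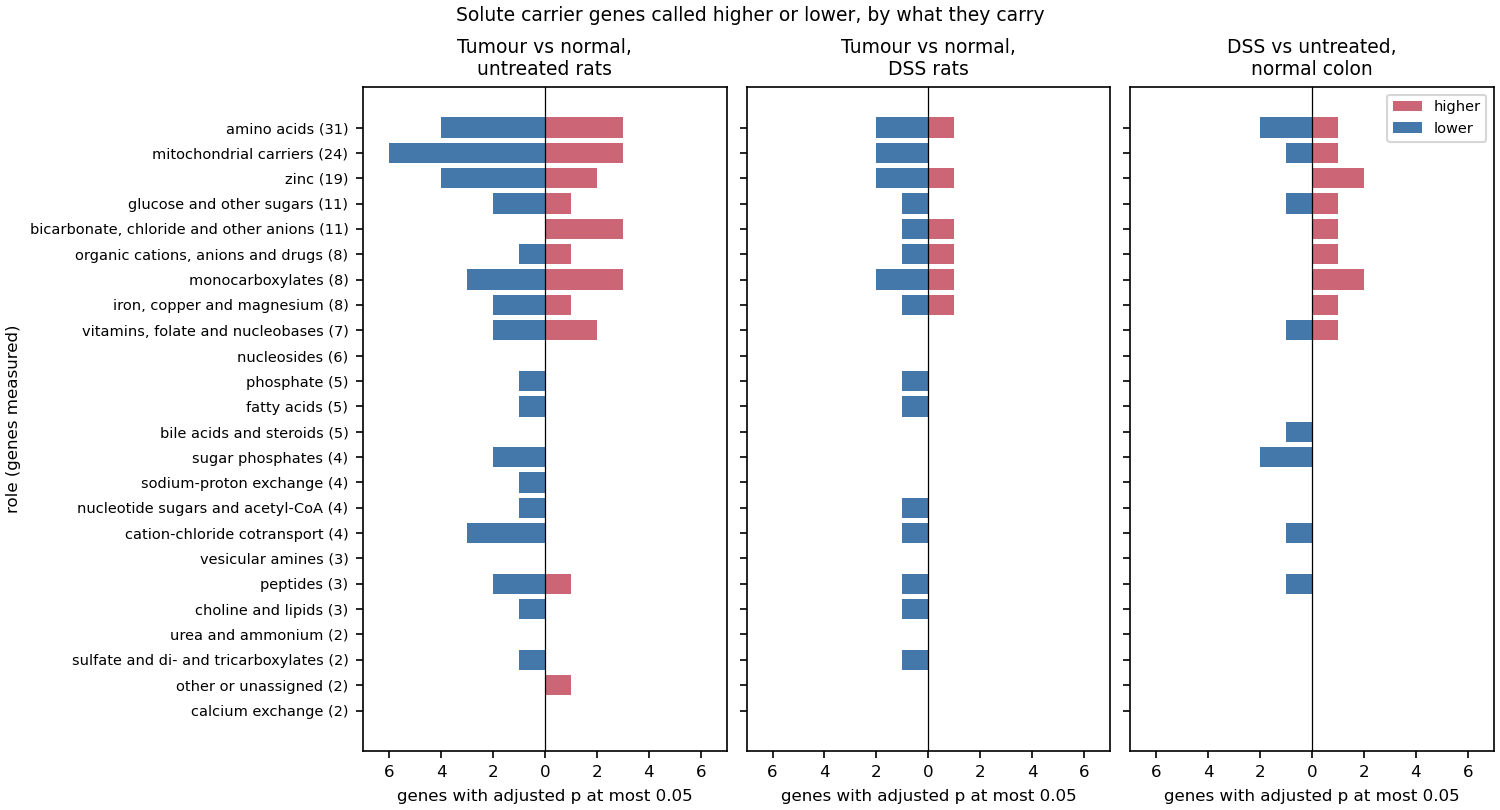
Bars give how many solute carrier genes of each role had an adjusted p of at most 0.05, higher to the right and lower to the left of 0, in 3 comparisons; the number of genes measured in a role stands in brackets. In tumours of untreated rats, where 32% of the 181 genes and 18.2% of all features passed, mitochondrial carriers had 3 higher and 6 lower of 24. Monocarboxylate carriers had 3 higher and 3 lower of 8, and the 6 nucleoside carriers had no call.

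The mitochondrial carriers (SLC25) contain a pair of adenine nucleotide translocases that moved in opposite directions in tumours of untreated rats. They exchange ATP made in the mitochondrion for cytosolic ADP. Slc25a4 (ANT1), the form typical of muscle and heart, read -1.93, -2.39, -2.45, -1.85 and -1.86 in untreated normal colon and -0.052, -0.22, 0.051, 0.85 and 0.18 in their tumours. In DSS rats it read 0.087, 0.25, 0.072, -0.51 and 0.91 in normal colon and 0.92, 0.28, 0.36, 0.66 and 0.94 in tumours. All 5 normal samples of untreated rats lay below every sample of the other 3 groups. The change to tumour was 2.26 ± 0.23 in untreated rats (adjusted p = 6.32e-06) and 0.47 ± 0.23 in DSS rats (adjusted p = 0.281), and the change from untreated to DSS normal colon was 2.26 ± 0.23 (adjusted p = 1.37e-05). The first and last of these share the 5 normal samples of untreated rats. The interaction, which subtracts the DSS effect in normal colon from that in tumour, was -1.79 ± 0.33 (adjusted p = 0.00593).

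Slc25a5 (ANT2), the form typical of proliferating cells, read -0.011, 0.0052, -0.16, 0.35 and 0.28 in normal colon and -0.37, -0.43, -0.43, -0.25 and -0.17 in tumours of untreated rats, and 0.072, -0.092, -0.32, 0.49 and 0.074 in normal colon and -0.89, -0.65, -0.74, -0.80 and -0.61 in tumours of DSS rats. Tumours were lower without overlap, with changes of -0.42 ± 0.13 (adjusted p = 0.0234; lost without rat 3, 8 or 10, adjusted p up to 0.0984) and -0.78 ± 0.13 (adjusted p = 0.000636). As these genes are similar, the first 30 bases of each of their 60-base probes are shown as deposited, 5′ to 3′, because the opposite readings turn on them.
Slc25a4 probe 1: cagatcagtgcagagaaacagtacaaaggc
Slc25a4 probe 2: atgggctgggtgactgtctcaccaagatct
Slc25a4 probe 3: ccagaccataaggaatacctcagaaaaatg
Slc25a5 probe 1: gtatgatgatgcagtctggacgcaaaagaa
Slc25a5 probe 2: caaaggaactgatatcatgtatacaggaac
Slc25a5 probe 3: ttgtatgatgaaatcaagaagtacacataa
The longest run of bases shared between whole probes of the 2 genes was 6. Different probes of the same gene also shared short runs, as few as 5 bases for Slc25a4. Probes were not compared with the transcript of the other gene. Whether a probe also binds that transcript was therefore not tested. In untreated rats the 3 Slc25a4 probes rose by 1.82, 2.26 and 2.22 and the 3 Slc25a5 probes changed by -0.42, -0.48 and -0.51, all past the threshold. Slc25a10, the dicarboxylate carrier, was lower in tumours of both treatments at -1.61 ± 0.28 and -1.18 ± 0.28 (adjusted p = 0.000708 and 0.0139; the second lost without rat 5 or 9, adjusted p up to 0.0599). Over all genes with several probes and a call in untreated rats, 23 of 24 other probes had the same direction, 13 of them past the threshold, and Slc11a2 had the exception.

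Normal colon of DSS rats, sampled at 97 days of age, differed from that of untreated rats in 21 solute carrier genes. Slc25a4 (2.26), Slc4a9 (1.92) and Slc16a11 (1.68) had the largest increases and Slc46a1 (-1.43), Slc37a2 (-1.32) and Slc12a7 (-1.13) the largest decreases. Of 181 genes 11 were higher and 10 lower, 11.6% against 7.37% of all features (3.98% higher and 3.39% lower). This comparison shares normal samples with both tumour comparisons above. Among features held to the same signal rule as the members, 8.5% passed, beside 11.6% of members. Medians were -0.064 over members and -0.015 over all features. The count was 13 without rat 2, 11 without rat 3, 11 without rat 4, 13 without rat 5 and 12 without rat 6, and 9 calls held whichever rat was left out. It was 37 with slide set as a block and 2, both higher, with median centring, under which all 21 kept their direction.

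Slc4a9, of the bicarbonate transporter family, read -0.15, -0.021, -4.5e-05, 0.39 and -0.012 in normal tissue of untreated and 1.84, 1.95, 1.34, 1.51 and 3.16 in that of DSS rats. Tumours read -0.034, 0.20, 0.18, 0.47 and 0.17 in untreated and -0.070, -0.10, -0.12, -0.21 and -0.092 in DSS rats. Normal colon of DSS rats stood above every other sample, with rat 9 highest, and among untreated rats rat 8 was highest. The change with DSS was 1.92 ± 0.23 (adjusted p = 4.8e-05), and the change to tumour in DSS rats was -2.08 ± 0.23 (adjusted p = 1.63e-05); both use the normal colon of DSS rats. On tumours of DSS rats the probe was well above background on 1 of 6 arrays.

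Slc16a11 read 0.25, -0.18, 0.13, 0.051 and -0.11 in normal tissue of untreated and 1.78, 1.92, 1.45, 0.86 and 2.51 in that of DSS rats, with no overlap and a change of 1.68 ± 0.21 (adjusted p = 7.83e-05). Rat 9 was highest and rat 7 lowest of the DSS rats. Smaller increases were those of Slc2a6 at 1.03 ± 0.26 (adjusted p = 0.0205; lost without rat 3 or 6, adjusted p up to 0.0554), Slc16a6 at 0.80 ± 0.23 (adjusted p = 0.0419) and the zinc importer Slc39a6 at 0.78 ± 0.21 (adjusted p = 0.0334). Slc16a6 was lost without rat 1, 2, 3, 4, 7, 9 or 10, adjusted p up to 0.118, and without the 3 arrays of raised signal, adjusted p = 0.0992. Its second probe changed by 0.16 without passing. The call for Slc39a6 was lost without rat 2, 3, 4, 6, 8 or 9, adjusted p up to 0.103, and without the 3 arrays of raised signal, adjusted p = 0.0776. Slc30a1, which pumps zinc out of the cell and is a known target of the zinc sensor MTF1, read -0.37, -0.41, -0.23, -0.37 and -0.20 in untreated and 0.54, 0.58, 0.077, 0.17 and 0.10 in DSS rats. All DSS samples were above all untreated ones, with a change of 0.61 ± 0.098 (adjusted p = 0.000715). Slc7a5 was higher by 0.61 ± 0.15 (adjusted p = 0.0217; lost without rat 4, 5, 6 or 7, adjusted p up to 0.0593, and without the 3 arrays of raised signal, adjusted p = 0.0841), also without overlap.

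Slc46a1, the folate carrier, read -0.16, 0.76, 1.09, 0.12 and -0.059 in normal tissue of untreated and -0.58, -0.51, -1.41, -1.57 and -1.35 in that of DSS rats. All DSS samples were lower, with a change of -1.43 ± 0.26 (adjusted p = 0.00203), and the call held whichever rat was left out. Its second probe changed by -0.36 without passing. Also lower were Slc12a7 at -1.13 ± 0.25 (adjusted p = 0.0104), Slc37a2 at -1.32 ± 0.32 (adjusted p = 0.0176; lost without rat 3, 4 or 7, adjusted p up to 0.0623) and Slc6a4 at -0.81 ± 0.19 (adjusted p = 0.012). Of the other probes for Slc12a7, 1 passed in the same direction and 1 changed the other way, at 0.088. For Slc6a4 every DSS sample (-0.47, -0.35, -0.67, -0.58 and -0.57) lay below every untreated one.

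Squamous epithelium markers moved with this comparison. Of 8 measured of 11, all 8 were higher in normal colon of DSS rats (median 2.89) and all 8 lower in tumours of DSS rats than in their normal colon (median -2.76). Their mean was 2.76, 3.39, 3.05, 3.20 and 4.47 in normal colon of DSS rats 1, 5, 6, 7 and 9 and -0.26, 0.027, 0.026, 1.71 and -0.051 in that of untreated rats 2, 3, 4, 8 and 10; tumours ran from -0.13 to 0.44. Among DSS rats rat 9 was highest for these markers and for Slc4a9, Slc16a11, Slc16a6, Slc22a4, Slc25a4 and Slc39a6, and not for the other 5 of the 11 higher genes: Slc30a1 was highest in rat 5 at 0.58, with rat 9 at 0.10. Among untreated rats rat 8 was highest for the markers, Slc4a9, Slc16a6, Slc25a4 (barely above rat 10), Slc2a6 and Slc7a5. It was not for Slc16a11, which was highest in rat 2 at 0.25, or for Slc30a1, which was highest in rat 10. No squamous marker was below background on all arrays of a group. The part of squamous epithelium in the changes of these transporters was not tested. Of macrophage and neutrophil markers 2 of 5 each were higher in normal colon of DSS rats. Over all features 3.98% were higher there, and 3.88% were lower in tumours of DSS rats than in their normal colon.

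**Figure D4:**
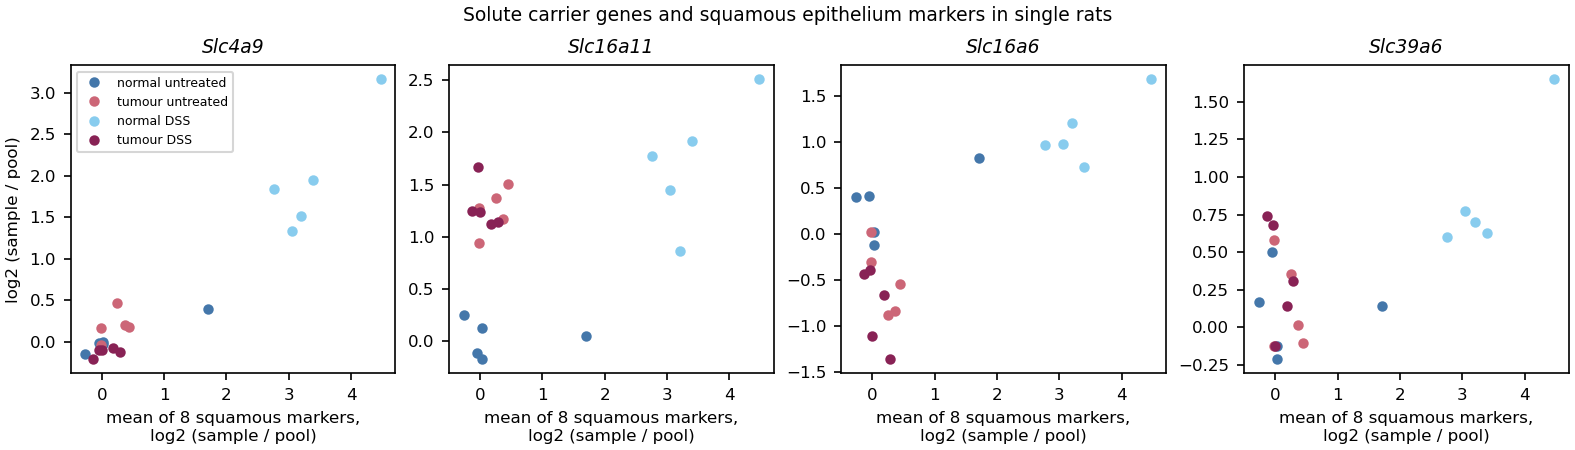
Each panel sets the level of 1 solute carrier gene (y axis) against the mean of 8 squamous epithelium markers (x axis), both as log2 of sample over pool, in the 20 samples coloured by group. The 5 normal samples of DSS rats lie at the right, between 2.76 and 4.47, and rat 9 is the point farthest right in each panel. All genes shown are from those that were highest in rat 9 among DSS rats.

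Between tumours of DSS rats and those of untreated rats no solute carrier gene passed, and no feature of the array did (0 of 26097, 0%) by limma with Benjamini-Hochberg adjustment. At an unadjusted p under 0.05 there were 13 members. The smallest adjusted p among members was that of Slc44a4 at 0.251, with a change of -0.59 ± 0.13. Slc25a5 changed by -0.41 ± 0.13 and Slc16a3 by -0.95 ± 0.30 (adjusted p = 0.469 and 0.484). In the other direction the zinc carrier Slc39a7 changed by 0.57 ± 0.20 (adjusted p = 0.57).

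The effect of DSS differed between tissues for 7 solute carrier genes, 2 higher and 5 lower in tumour than in normal colon, or 3.87% against 2.61% of all features (0.885% higher and 1.72% lower). Slc4a9 (-2.23 ± 0.33, adjusted p = 0.000903), Slc16a11 (-1.65 ± 0.30, adjusted p = 0.00527) and Slc25a4 had the largest size, and these 3 held whichever rat was left out. Slc6a14, an importer of most amino acids that is known to be raised in inflamed colon, read 1.67, 1.38, 1.06, 1.32 and 0.33 in normal colon and 1.31, 1.18, 1.85, 2.10 and 1.54 in tumours of untreated rats. In DSS rats it read 1.41, 1.56, 1.82, 2.19 and 2.01 in normal colon and 0.92, 0.64, 0.63, 0.71 and 1.36 in tumours. Its level was lower in tumour than in normal colon of DSS rats, without overlap, with a change of -0.94 ± 0.23 (adjusted p = 0.0156; lost without rat 5, 6 or 7, adjusted p up to 0.0814), and its interaction was -1.39 ± 0.33 (adjusted p = 0.0287; lost without rat 4, 5, 6, 7 or 8, adjusted p up to 0.102). The others were Slc6a4 (1.01 ± 0.26, adjusted p = 0.0471), Slc15a4, a lysosomal peptide carrier (0.65 ± 0.15, adjusted p = 0.0274), and Slc30a1 (-0.55 ± 0.14, adjusted p = 0.042). The call for Slc6a4 was lost without rat 1, 3, 4, 5, 7, 8, 9 or 10, adjusted p up to 0.155, and without the 3 arrays of raised signal, adjusted p = 0.161. That for Slc15a4 was lost without rat 1, 2, 4, 6, 8 or 9, adjusted p up to 0.101, and without the 3 arrays of raised signal, adjusted p = 0.132. That for Slc30a1 was lost without rat 1, 2, 3, 4, 5, 7, 8 or 10, adjusted p up to 0.129, and without the 3 arrays of raised signal, adjusted p = 0.0714. The second probe for Slc15a4 gave an interaction of 0.41 without passing. Without rats 1, 4, 5 or 8 the count was 4, 3, 4 and 3. Among features held to the same signal rule as the members, 3.14% passed, beside 4.42% of members. With rat as a replicate block, which pairs the tissues of a rat, 16 genes passed, 8 in each direction. Median centring left 1, which was lower, and turned Slc30a1 to 0.16.

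**Figure D5:**
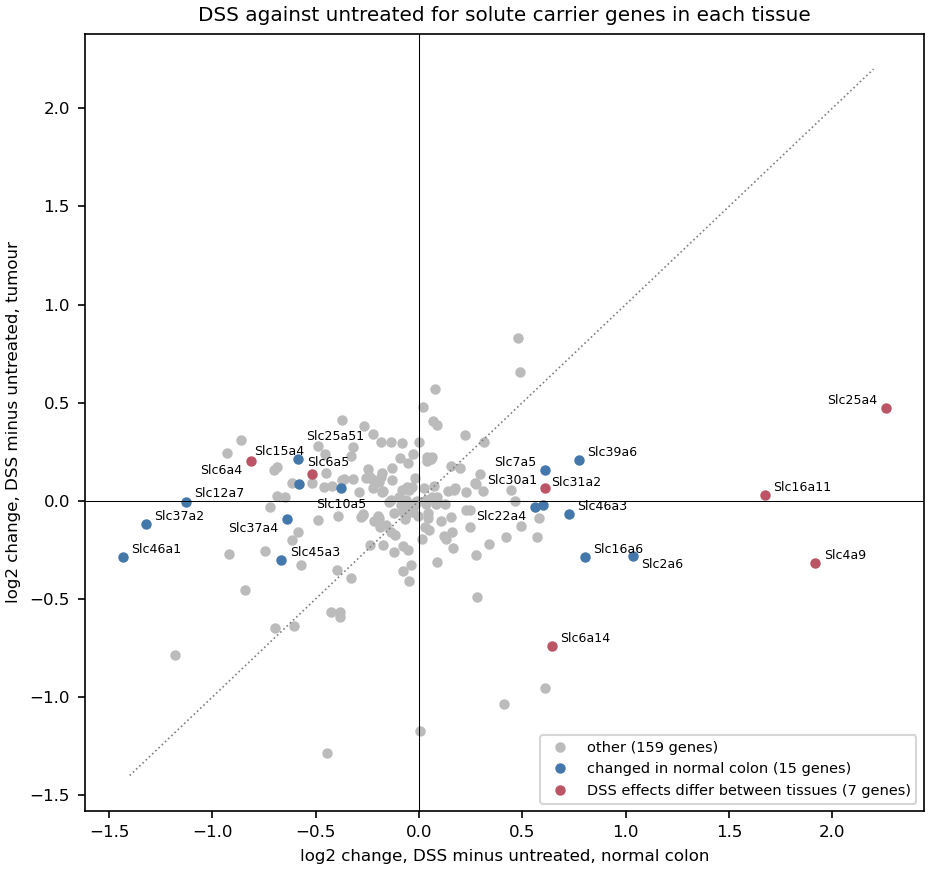
Each point is 1 solute carrier gene, placed by its log2 change from untreated to DSS rats in normal colon (x axis) and in tumour (y axis); red marks the 7 genes whose DSS effects differed between the tissues and blue the other 15 that changed in normal colon. Slc25a4, Slc4a9 and Slc16a11 lie far to the right, much closer to 0 on the y axis than on the x axis.

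Proteins that work with these carriers were read beside them. Of 14 measured partners, 3 were higher and 4 lower in tumours of untreated rats. Of all features 8.7% were higher and 9.5% lower there. The chaperone Bsg of MCT1 and MCT4 was lower at -0.71, the scaffold Nherf4 at -1.46 and the kinase Sgk1 at -3.44. Emb, another chaperone of monocarboxylate carriers, was higher by 1.54. In DSS rats 0 partners were higher and 4 lower, among them Sgk1 at -2.79 and Nherf4 at -1.39, beside 3.78% and 3.88% of all features. Of 7 measured Slco organic anion carriers, 1 was higher and 2 lower in untreated tumours, with Slco2b1 at -2.70. Of 15 measured genes of the amino acid response, 4 were higher and 0 lower in untreated tumours (Asns 1.26, Trib3 1.27, Chac1 1.37 and Shmt2 0.75). In tumours of DSS rats 2 were higher and 1 lower than in their normal colon. In normal colon of DSS rats 4 were higher, Chac1 by 2.43, and 0 lower, beside 3.98% and 3.39% of all features.

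Promoters were read from RefSeq (build GRCr8) for 147 of the 181 genes, as the 250 bases before the annotated start, and searched on both strands. The motifs were a loose form of the metal response core, TGCNCNC, the E box CACGTG, a loose form of the AP-1 site, TGANTCA, the TCF site ATCAAAG and the amino acid response site TGATGNAA. Among 27457 promoters of all genes 43.9%, 5.77%, 6.39%, 3.18% and 3.30% held them, and among the 147 members 52.4%, 14.3%, 10.9%, 1.36% and 3.40%. The member promoters were richer in G and C, with a median of 61.6% against 52%. Matches of different motifs overlapped in 3 members (Slc41a3, Slc43a1 and Slc49a4) and matches of 1 motif overlapped in 6. Of the 10 genes with a promoter that were higher in normal colon of DSS rats, 10 held this loose metal response core. So did 5 of the 8 that were lower, beside 52.4% of the 147 members. A match is a description of letters and no site.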

How the data were processed

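The deposited files hold scanner intensity per spot, which the authors made with Agilent's software Feature Extraction (version 9.1.3.1, per the file headers). The submitters' processing notes also list Partek without saying what it did. The deposited ratio column is on a log10 scale, Cy5 over Cy3, per the file headers, and was not used for the results. Well-above-background flags came with the deposited files.

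Mean and median background intensity were corrected with normexp (offset 50) and loess-normalized within each array in limma 3.58.1 (R 4.3.3), giving log2 of Cy3 over Cy5. Control spots and outlier spots were left out. Arrays of 1 rat and tissue were averaged, though the labels do not say whether second arrays used the same extract. Of 41012 gene probes, those well above background on at least 5 of 24 arrays were kept, with the brightest probe for each current symbol, which left 26097 features. A group-means model on 20 samples with empirical Bayes moderation gave two-sided tests (16 residual and 2.24 prior degrees of freedom), adjusted by Benjamini-Hochberg over all features, with a threshold of 0.05. The script was tested on simulated data. Their number, 5 rats per group, limits the precision. Motif and count tables used pandas 2.3.3.

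The members and gene lists were chosen with earlier results of these data known. Named were the 6 largest increases and decreases past the threshold in each comparison, or the 3 smallest p in a direction with fewer than 3, the 6 smallest p of the interaction, the 2 to 4 smallest p of each role, and a fixed list of known colonic transporters. Alternatives were median centring, processed signals, offset 16, other signal filters, all probes, slide set or rat as a block, single slide sets, leaving out a rat or the arrays of raised signal, and rats 1 and 5 as 1 sample, the last added after the data were seen. Tissues are paired because the labels give the same animal. The main fit did not use this pairing, which entered only in the fits with rat as a block. Deviations of the paired samples from their group means correlated at 0.081 to 0.57 (median 0.39). Some genes are not reported here, though they stay in the counts of changed genes.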

Additional observations from a re-analysis of the deposited data

Results flagged for a closer look

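Single rats stood apart from the other 4 of their group in 18 of the 395 groups examined over the named genes, by Dixon's test at 95%; chance gives about 1 in 20. The untreated normal colon of rat 8 gave 5 of them, and 4 came from the DSS tumour of rat 9, whose array had raised signal. Rat 8 normal colon read -0.39 for the urea transporter Slc14a1, -0.29 for Slc16a3, -1.07 for the carnitine carrier Slc22a5, -1.09 for the iron exporter Slc40a1 and 0.39 for Slc4a9. Rat 9 tumour read 0.70 for Slc10a7, 1.67 for Slc16a11, 0.65 for Slc41a3 and -0.17 for the choline carrier Slc44a1. In normal colon of other untreated rats Slc13a2 was 0.18 in rat 4, Slc15a4 was -0.095 in rat 10 and Slc35a1 was 0.25 in rat 2. In tumours of untreated rats Slc14a2 was 0.20 in rat 3 and Slc23a3 was -0.24 in rat 2. In normal colon of DSS rats Slc16a13 was 0.33 and the vesicular amine carrier Slc18a1 was -1.08 in rat 6, and Slc39a6 was 1.65 in rat 9. The DSS tumour of rat 6 read -1.20 for Slc37a4.

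The effect of DSS differed between tumour and normal colon, by limma's interaction test, for 7 genes. The differences were 0.65 for Slc15a4, -1.65 for Slc16a11, -1.79 for Slc25a4, -0.55 for Slc30a1, -2.23 for Slc4a9, -1.39 for Slc6a14 and 1.01 for Slc6a4, on the log2 scale.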

How the results depend on the processing

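Counts of called solute carrier genes depended on several choices, while directions mostly held. With median centring in place of loess the counts were 14 (tumour against normal, untreated), 6 (tumour against normal, DSS), 2 (DSS in normal colon) and 1 (interaction), and of the named results 230 kept direction and side of the threshold, 70 fell short of it, and 2 reversed: Slc30a1 in the interaction at 0.16 and Slc44a4 in tumours of DSS rats at 0.083. With slide set as a block they were 37 for DSS in normal colon and 15 for the interaction. Within slide set 2 alone, with fewer rats, they were 29, 2, 0 and 0. The interaction gave 11 with processed signals, 4 without the arrays of raised signal and 16 with rat as a fixed replicate block, which pairs the tissues; over the named results that block gained 18 calls and lost 3. Leaving out 1 rat gave 38 to 62, 12 to 27, 11 to 21 and 3 to 8; the low ends were without rat 8, rat 5, rats 3 and 4, and rats 4 and 8. With offset 16 the share of interaction calls that were higher was 16.7% instead of 28.6%, and with median centring 0%; for DSS in normal colon median centring gave 100% instead of 52.4%. For DSS in tumours the count was 0 in every fit run. Taking each probe as its own feature changed no named call. The causes were not tested. For Slc26a1, Slc4a9 and Slc34a2 signal near background limits the low group.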
